A study of Homo sapiens with 9 samples.

Results

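The human mitochondrial genome carries 37 genes, and the values of all 37 were read in JAG1-knockout and wild-type breast cancer cells. They were chosen as the genes whose symbol starts with MT- and which both count tables place on the mitochondrial chromosome, 37 of the 56505 genes listed. They comprise 13 mRNA genes, 2 rRNA genes and 22 tRNA genes. All 37 listed positions matched GENCODE release 29 on build GRCh38. Of the 37, 30 passed the filter on low counts and were tested: 13 mRNA genes, 2 rRNA genes and 15 tRNA genes.

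Mitochondrial DNA is a small circle that is transcribed in long runs from both strands. The runs are then released as single mRNAs, rRNAs and tRNAs, largely by cleavage at the tRNAs that lie between the coding genes. Every protein it encodes is a subunit of the respiratory chain or of ATP synthase, and all other subunits, the RNA polymerase and the processing enzymes come from nuclear genes. Because many copies of the circle sit in each cell, a handful of short genes can take up a sizeable part of a sequencing library.

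The cells, MDA-MB-231-D3H2LN, belong to the MDA-MB-231 family of human breast cancer lines and were grown in high-glucose DMEM with 10% FBS. The wild-type group expressed JAG1, a membrane ligand of Notch receptors. The other groups were JAG1-knockout clone 1 and JAG1-knockout clone 2. Each clone was grown from a single cell after transfection of Cas9 protein with guides against 2 places of a JAG1 exon, and was described as homozygous. Each clone is therefore 1 cell line, and an effect of the knockout cannot be told apart from a difference between clones. There were 3 libraries in each group, 9 in all, each made from total RNA. No source says whether the 3 libraries of a group were grown apart, so every p-value here rests on library-to-library spread that may be purely technical.

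Total counts ran from 16890890 to 22456164 per library, and 16921 genes were tested. JAG1 counts were 5069, 3803 and 3592 in wild-type cells, 2130, 1699 and 1657 in clone 1, and 1230, 1406 and 1190 in clone 2. JAG1 was lower in clone 1 (log2 fold change -1.05, SE 0.18, edgeR adjusted p = 0.00312) and in clone 2 (-1.55, SE 0.18, adjusted p = 0.00013), so the counts went with the labels. Vimentin (VIM), a marker of this mesenchymal-type line, had 13825 to 48498 counts per library. Of 7 tested genes listed for the line, VIM was higher in clone 2 than in wild type (edgeR adjusted p = 0.0491). The keratins KRT8 and KRT18 were lower in clone 1 (0.0209 and 0.0396). Leaving out single libraries raised these values to 0.202, 0.127 and 0.212. Between the clones, 3 of the 7 were higher and 1 lower in clone 2, where 33.9% of all tested genes were called. The summed level of 10 markers of blood, endothelial, fibroblast and liver cells was 22.6 to 40.61 CPM in wild type, 20.56 to 23.31 in clone 1 and 14.45 to 20.8 in clone 2, and CD3E, a T-cell marker, had 0 counts in every library. Of the 3 markers tested, CD14, a monocyte marker, was lower in clone 2 than in wild type (3, 9 and 7 against 26, 99 and 40 counts, log2 fold change -2.93, adjusted p = 0.00938, but 0.0914 without wild type replicate 2). Clone 1 had 17, 28 and 19 CD14 counts, and clone 2 was lower here too (log2 fold change -1.74, adjusted p = 0.0312). Removing clone 1 replicate 2, clone 1 replicate 3, clone 2 replicate 1 or clone 2 replicate 3 ended that call (up to 0.0846). Its part in the mitochondrial results was not tested. Clone 2 replicate 1 stood apart, with 19905 genes detected against 21395 to 24349 in the other libraries. Several results are therefore also given without it.

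The sequences of the closely packed genes set what short reads can separate here, so the overlaps are shown first. Sequences are those of GENCODE release 29 transcripts on GRCh38, 5′ to 3′ along the gene. MT-ATP8 and MT-ATP6, subunits of ATP synthase, share 46 bases in different reading frames, and MT-ND4L and MT-ND4, subunits of complex I, share 7 bases. Capitals mark the shared bases, at MT:8500-8599 and MT:10730-10796 on the plus strand.
MT-ATP8 and MT-ATP6: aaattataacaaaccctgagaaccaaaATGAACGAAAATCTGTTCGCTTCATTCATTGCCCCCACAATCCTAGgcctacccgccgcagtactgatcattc
MT-ND4L and MT-ND4: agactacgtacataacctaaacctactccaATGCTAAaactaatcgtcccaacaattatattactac
Each pair is found on a single joint mRNA in human cells. Reads that cover shared bases belong to both genes, so the separate counts of MT-ATP8 and MT-ND4L are uncertain. In all, 5 pairs of neighbouring genes overlapped. The remaining overlaps were 1 base between MT-ATP6 and MT-CO3, 3 bases between MT-TI and MT-TQ, and 1 base between MT-TC and MT-TY.

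The ends of 4 mRNAs show how tightly the genome is packed, with the stop codon, or the part of it that the DNA encodes, in capitals. The stretches are MT:7422-7445, MT:5488-5511 and MT:4239-4262 on the plus strand and MT:14149-14172 on the minus strand.
MT-CO1: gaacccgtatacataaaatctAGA
MT-ND2: ccccttttatactaataatcttaT
MT-ND1: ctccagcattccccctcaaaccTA
MT-ND6: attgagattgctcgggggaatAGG
MT-CO1 and MT-ND6 close with AGA and AGG. Of the 13 mRNA genes, 6 end within a stop codon, 5 of them after a single T and 1 after TA, and the added poly(A) tail completes the codon. MT-ND6 is the only mRNA gene on the minus strand, together with 8 of the 22 tRNA genes. Its sense sequence holds 35.6% G and 7.05% C, whereas the other 12 mRNA genes hold 6.28 to 16.2% G and 29.5 to 36.0% C. The strand setting of the authors' counting is not given in the sources used here. Reads of MT-ND6 therefore cannot be told apart from reads of the opposite strand.

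The tRNA genes with the most counts are MT-TL1, which lies directly after MT-RNR2 and reads leucine codons, and MT-TP, MT-TC and MT-TN, which read proline, cysteine and asparagine codons from the minus strand. Capitals mark the anticodon. Positions are MT:3230-3304, MT:15956-16023, MT:5761-5826 and MT:5657-5729.
MT-TL1: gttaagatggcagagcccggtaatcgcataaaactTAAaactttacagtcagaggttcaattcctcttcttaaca
MT-TP: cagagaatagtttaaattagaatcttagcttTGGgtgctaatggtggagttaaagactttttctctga
MT-TC: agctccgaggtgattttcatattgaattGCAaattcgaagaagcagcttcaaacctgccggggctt
MT-TN: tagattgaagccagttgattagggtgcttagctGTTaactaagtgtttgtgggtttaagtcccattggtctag
The tRNA genes are 59 to 75 bases long. The reads, of 150 bases, are longer than these genes, so a count does not separate a mature tRNA from a longer RNA that contains it. Because the strand setting is not given, reads of the opposite strand cannot be told apart in the counts of MT-TP, MT-TC and MT-TN either.

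Clone 2 devoted the smallest part of its libraries to mitochondrial mRNA and clone 1 the largest, with wild type between. The 13 mRNAs made up 2.52%, 3.67% and 1.66% of all counts in the wild-type libraries, in the order of their replicate numbers. They made up 2.28%, 3.61% and 4.905% in clone 1, and 0.843%, 1.79% and 1.01% in clone 2. All 3 clone 2 libraries lay below all 3 clone 1 libraries, while wild type overlapped both clones.

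The mean share was 2.62% ± 1.01 (SD, n = 3) in the wild-type libraries, 3.60% ± 1.31 in clone 1 and 1.21% ± 0.506 in clone 2. The mean was 2.96 times higher in clone 1 than in clone 2, and the exact two-sided permutation test gave p = 0.1, the smallest value that 3 libraries against 3 allow. Against wild type, clone 2 was lower by a factor of 2.15 (exact permutation p = 0.2) and clone 1 differed by 0.984 percentage points (exact permutation p = 0.5). Neither difference from wild type reached that smallest value, and with 3 libraries against 3 no comparison could fall under 0.05. Clone 2 was lower than wild type in each of the 3 same-numbered pairs of libraries, and with the replicate block the exact permutation p was 0.25, the smallest that 3 pairs allow. Without clone 2 replicate 1, the difference of means was -2.20 percentage points against clone 1 (-2.39 with it) and -1.22 against wild type (-1.40 with it). In these bulk libraries, fewer cells of a type and less RNA per cell cannot be told apart.

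Replicates of a group differed widely in this share. The highest library exceeded the lowest 2.22-fold in wild type, 2.15-fold in clone 1 and 2.13-fold in clone 2. The median SD of the 13 mRNAs' log2 levels (log2 of CPM plus 0.5) was 0.53 in wild-type cells, 0.56 in clone 1 and 0.48 in clone 2. For the 2231 genes above a mean of 100 CPM it was 0.19, 0.14 and 0.20. The mitochondrial mRNAs thus varied more between replicates than the median abundant RNA, and this spread limits every comparison of their level.

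The rRNAs and tRNAs had the same order of group means. The 2 rRNAs, which form the core of the mitochondrial ribosome, took 0.192% ± 0.0695 of the wild-type counts, 0.279% ± 0.0963 of those of clone 1 and 0.111% ± 0.0250 of those of clone 2 (SD, n = 3). The 22 tRNA genes together made up 0.00921%, 0.0125% and 0.00725% in the wild-type libraries, 0.0109%, 0.0110% and 0.0191% in clone 1, and 0.00466%, 0.00485% and 0.00323% in clone 2. The clone 2 tRNA shares lay below those of every wild-type and clone 1 library (exact permutation p = 0.1 in each comparison), 2.27-fold lower than wild type and 3.21-fold lower than clone 1 by the means.

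**Figure D1:**
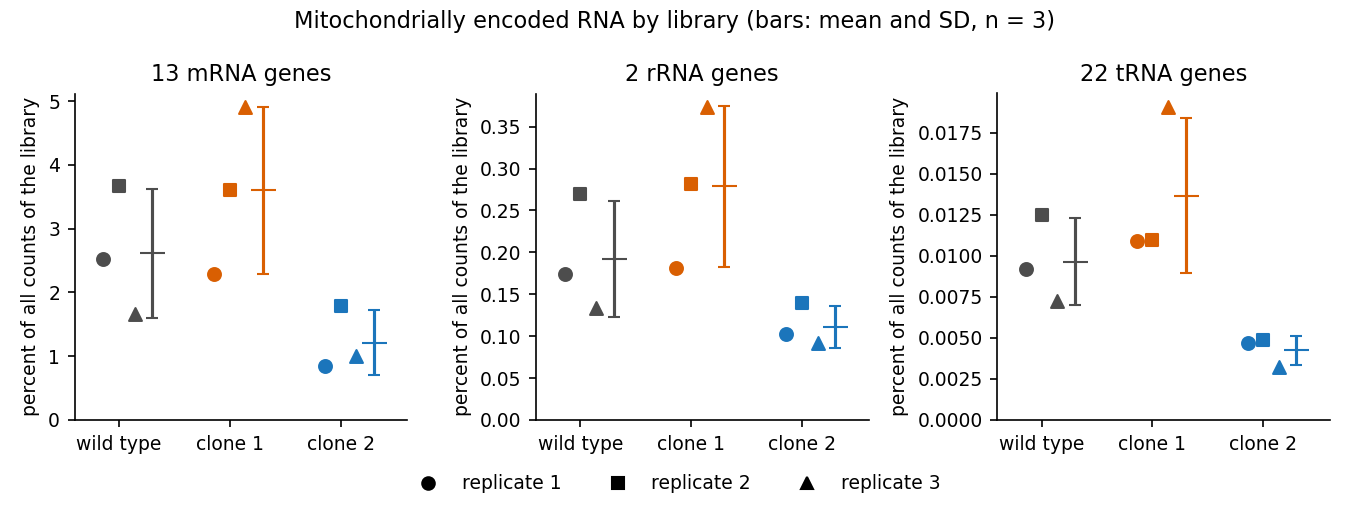
Each point is 1 library, and the vertical axes give the percent of all counts of that library from the mitochondrially encoded mRNAs, rRNAs and tRNAs in separate panels; bars show the mean and SD of 3 libraries. Clone 2 lies below clone 1 in the mRNA panel without overlap (0.843 to 1.79% against 2.28 to 4.905%), and wild type spans both.

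The largest differences per gene lay between the clones. Clone 2 was lower than clone 1 in 23 of the 30 tested mitochondrial genes at an adjusted p under 0.05 (edgeR quasi-likelihood, Benjamini-Hochberg over all genes tested), and none was higher. The background is high in this comparison: 14.1% of all tested genes were called lower and 33.9% were called in either direction. The 23 comprised 12 of 13 mRNAs, both rRNAs and 9 of 15 tRNA genes. The 13 mRNAs had a median log2 fold change of -1.43, against -0.01 over all genes tested. Without clone 2 replicate 1 or without clone 2 replicate 3 the count was 12, and without clone 1 replicate 3 it was 14.

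Among complex I subunits, MT-ND6 differed most. Its level was 372, 634 and 918 CPM in clone 1 and 125, 267 and 154 CPM in clone 2 (CPM, counts relative to library size after TMM scaling). No clone 2 library reached the lowest clone 1 library. The log2 fold change was -1.82 (SE 0.39, adjusted p = 0.0053), or 3.52-fold lower in clone 2. MT-ND4 and MT-ND5, core subunits of the proton-pumping arm, were lower by -1.53 (adjusted p = 0.00178) and -1.61 (adjusted p = 0.00211) on the log2 scale. MT-ND4 was 3195, 4478 and 6215 CPM in clone 1 and 1209, 2260.5 and 1344 CPM in clone 2, again without overlap. MT-ND2, another subunit of that arm, had 1506, 2271 and 3161 CPM in clone 1 and 821, 1528 and 937 CPM in clone 2. Here the highest clone 2 library passed the lowest clone 1 library, and the log2 fold change was -1.08 (SE 0.30, adjusted p = 0.0132). MT-ND1 (-1.41), MT-ND4L (-1.50) and MT-ND3 (-1.07) were also called lower.

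Subunits of the later complexes moved within the same range. MT-CO1, the catalytic subunit of cytochrome c oxidase, had 4302, 6787 and 8848 CPM in clone 1 and 1825, 3443 and 2031 CPM in clone 2. The groups did not overlap, and the log2 fold change was -1.45 (SE 0.33, adjusted p = 0.00361). The other oxidase subunits MT-CO2 (-1.46) and MT-CO3 (-1.29), the complex III subunit MT-CYB, which is cytochrome b (-1.43), and the ATP synthase subunit MT-ATP6 (-1.32) were called lower as well. MT-ATP8, the small ATP synthase subunit whose coding region overlaps that of MT-ATP6, was not called (-1.08, adjusted p = 0.0546). Of the 13 mRNAs, 11 did not overlap between the clones, the exceptions being MT-ND2 and MT-ATP8, while 21.6% of all tested genes lay lower in clone 2 without overlap.

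Leaving out single libraries was examined for 19 genes: the 13 mRNAs, both rRNAs and the 4 tRNA genes with the most counts. Of the 18 of these called lower in clone 2 than in clone 1, 10 were called whichever single library was left out: MT-RNR2, MT-TL1, MT-ND1, MT-TN, MT-TC, MT-CO1, MT-CO3, MT-ND4, MT-ND5 and MT-TP. The other 8 lost the call without at least 1 library: MT-RNR1, MT-ND2, MT-CO2, MT-ATP6, MT-ND3, MT-ND4L, MT-ND6 and MT-CYB. Without clone 2 replicate 1, MT-ND2 (edgeR adjusted p = 0.0722), MT-CO2 (0.0567) and MT-ATP6 (0.05775) lost it. So did MT-ND3 (0.107), MT-ND4L (0.0681) and MT-CYB (0.0914). Over all alternatives, the direction was kept in 304 of 304 values for these 19 genes. Within each group, however, the mRNAs were all highest in the same library, and the refits share most of their libraries. The calls, signs and refits of single genes, here and against wild type, are therefore not independent of each other or of the mRNA share.

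**Figure D2:**
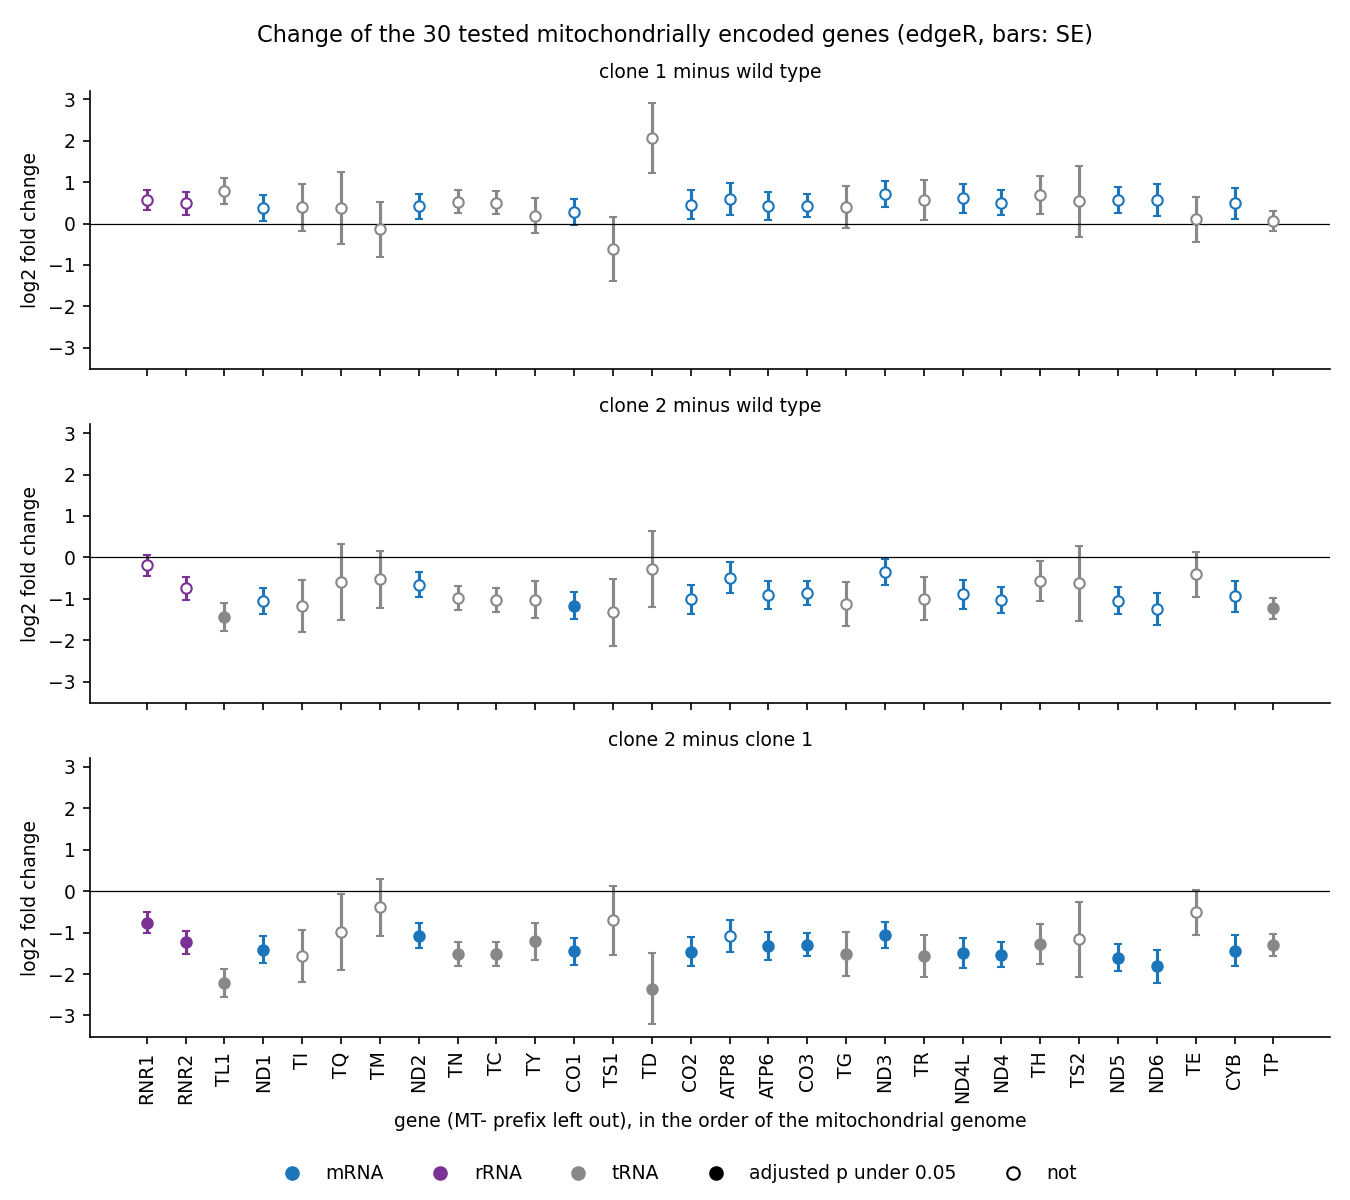
Vertical axes give the edgeR log2 fold change with its SE, horizontal axes the 30 tested genes in genome order, with 1 panel per comparison; filled points have an adjusted p under 0.05. Filled points number 0 for clone 1 against wild type, 3 for clone 2 against wild type and 23 for clone 2 against clone 1, all of them below 0.

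Against wild type, 3 of the 30 tested genes were lower in clone 2 and none was higher, where 2.75% of all tested genes were called lower and 5.96% in either direction. They were MT-CO1, MT-TL1 and MT-TP. MT-CO1 had 5338, 7522 and 3559 CPM in wild type against 1825, 3443 and 2031 CPM in clone 2. Every clone 2 library lay below the lowest wild-type library, by a small margin for 1 of them. The log2 fold change was -1.17 (SE 0.32, adjusted p = 0.0451), a 2.25-fold lower level.

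MT-TL1 had 7.33, 7.18 and 4.67 CPM in wild type and 1.61, 3.14 and 2.27 CPM in clone 2, from 26 to 170 counts per library. All clone 2 libraries lay below all wild-type libraries. It fell by a log2 of 1.44 (SE 0.34, adjusted p = 0.0236), or 2.71-fold. MT-TP had 15.2, 15.4 and 10.8 CPM in wild type and 7.60, 6.38 and 3.74 CPM in clone 2. These groups were also apart, with a log2 fold change of -1.23 (SE 0.26, adjusted p = 0.0123). MT-TP lies on the minus strand, and with the strand setting unknown its count may include reads of the opposite strand.

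None of these 3 calls held when each library was left out in turn. Without wild type replicate 2 no mitochondrial gene was called, the adjusted p being 0.194 for MT-CO1, 0.0942 for MT-TL1 and 0.054 for MT-TP. Without clone 2 replicate 3 none was called either, with 0.208, 0.0992 and 0.0623. MT-TL1 was also lost without wild type replicate 1 (0.0824). MT-CO1 was also lost without wild type replicate 1 (0.118), clone 1 replicate 2 (0.0731) or clone 2 replicate 1 (0.143), and in a fit of only the 6 libraries compared (0.0728). In the other direction, 12 genes were called without wild type replicate 3 and 11 without clone 2 replicate 2. The count was 1 without wild type replicate 1, 6 without clone 1 replicate 1 and 5 without clone 1 replicate 3. It was 4 without clone 2 replicate 1, where MT-TC (edgeR adjusted p = 0.0257) and MT-TN (0.0345) were called too.

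The other mRNAs all had negative log2 fold changes in clone 2 against wild type without being called. The 13 ran from -1.25 (MT-ND6, SE 0.39, adjusted p = 0.0818) to -0.35 (MT-ND3, adjusted p = 0.523), with a median of -0.94 against 0.00 over all genes tested. An unadjusted p under 0.05 was reached by 11 of the 13 mRNAs, by MT-RNR2 and by 6 of 15 tRNA genes, all lower, where 11.1% of all tested genes reached it as lower and 13.1% as higher. MT-ND4 (-1.03, adjusted p = 0.0576) and MT-ND1 (-1.04, adjusted p = 0.0641) came nearest to the threshold among the mRNAs. MT-CO1, MT-ND5 and MT-ND6 were the mRNAs whose libraries did not overlap, and 11.7% of all tested genes lay lower without overlap.

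With the replicate number as a block, 13 mitochondrial genes were called lower in clone 2 than in wild type: 9 mRNAs, MT-RNR2 and 3 tRNA genes, including the 3 named above. The block also raised the calls over all 16921 tested genes, from 1008 to 2699, of which 1171 were lower. The adjusted p then was 0.00231 for MT-CO1, 0.00634 for MT-ND4, 0.009 for MT-ND5 and 0.037 for MT-ND6. MT-ND2 (0.0505), MT-ATP8 (0.355), MT-ND3 (0.556) and MT-ND4L (0.206) were not called. The same-numbered wild-type and clone 2 libraries deviated together from their group means, although no label states what a number marks.

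In clone 1 against wild type, no mitochondrial gene was called, where 5.51% of all tested genes were called in either direction, 1.41% as higher and 4.1% as lower. All 13 mRNAs had positive log2 fold changes, from 0.28 (MT-CO1, adjusted p = 0.646) to 0.71 (MT-ND3, SE 0.31, adjusted p = 0.201), with a median of 0.49 against -0.02 over all genes tested. At an unadjusted p under 0.05, 4 of the 30 passed: MT-ND3, MT-RNR1, MT-TL1 and MT-TD, all higher, as did 7.95% of all tested genes in the higher and 13.9% in the lower direction. DESeq2 called none, and edgeR without the filter on low counts called MT-ND3 (adjusted p = 0.0123) and MT-RNR1 (adjusted p = 0.0237). No mRNA was free of overlap between the groups, nor did any tested mitochondrial gene lie lower in clone 1 without overlap, where 16.5% of all tested genes did. MT-CO1, for example, had 5338, 7522 and 3559 CPM in wild type and 4302, 6787 and 8848 CPM in clone 1. Both clones are compared with the same wild-type libraries, so these comparisons are not independent of each other.

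The composition of the mitochondrial mRNA varied less between replicates than its amount. Each gene's counts were taken as a share of the counts of the 13 mRNAs, which sets aside the total amount by division only. The 13 shares sum to the whole and so depend on each other, and some followed the total: the MT-CO2 share was 8.91%, 9.80% and 8.71% in wild type, highest in the library with the most mitochondrial mRNA. MT-CO1 made up 21.6%, 21.7% and 21.3% in wild-type cells, 19.5%, 19.9% and 19.2% in clone 1 and 18.7%, 18.9% and 18.9% in clone 2. The 3 groups did not overlap at all, with means of 21.6% ± 0.195, 19.5% ± 0.342 and 18.8% ± 0.150 (SD, n = 3), wild type being highest and clone 2 lowest. The exact permutation p was 0.1 in each comparison, the smallest that 3 against 3 allow.

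Several complex I subunits and the small ATP synthase subunit also had clone 2 shares outside those of the other libraries. MT-ND2 made up 7.04%, 6.54% and 7.18% in the wild-type libraries, 6.84%, 6.65% and 6.86% in clone 1, and 8.39%, 8.39% and 8.72% in clone 2. MT-ND6 made up 1.62%, 1.79% and 1.68% in wild-type cells, 1.69%, 1.86% and 1.99% in clone 1, and 1.27%, 1.47% and 1.44% in clone 2. MT-ND2 was thus higher, and MT-ND6 lower, in each clone 2 library than in each library of the other groups (exact permutation p = 0.1). MT-ATP8 made up 0.201%, 0.236% and 0.239% in the wild-type libraries, 0.255%, 0.242% and 0.259% in clone 1, and 0.311%, 0.342% and 0.272% in clone 2, so that the groups did not overlap. MT-ND3, a small complex I subunit, made up 0.950%, 0.995% and 1.31% in wild-type cells, 1.52%, 0.864% and 1.47% in clone 1, and 1.69%, 1.56% and 1.62% in clone 2. It too was higher in clone 2 without overlap.

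Of the 13 shares, 5 did not overlap between clone 2 and wild type: MT-ND2, MT-ATP8 and MT-ND3 were higher and MT-CO1 and MT-ND6 lower. Across all tested genes, the CPM of 25.9% did not overlap in that comparison. Between the clones 6 shares did not overlap (47.4% of all tested genes by CPM), the same 5 and MT-ND4, which was lower in clone 2. That count was near the level over all tested genes. Between clone 1 and wild type the count was 2 (29.6% of all tested genes by CPM), MT-ATP8 higher and MT-CO1 lower. That last count became 6 without wild type replicate 2 and 5 without clone 1 replicate 1 or 2, and the smallest exact p with 3 against 2 libraries is also 0.1. Adjusted over the 13 shares, the smallest exact permutation p was 0.26 for clone 2 against wild type. It was 0.217 between the clones and 0.52 for clone 1 against wild type. Clone 2 replicate 1 had an unusual MT-CO3 share of 17.8%, against 13.6% and 13.7% in the other clone 2 libraries.

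**Figure D3:**
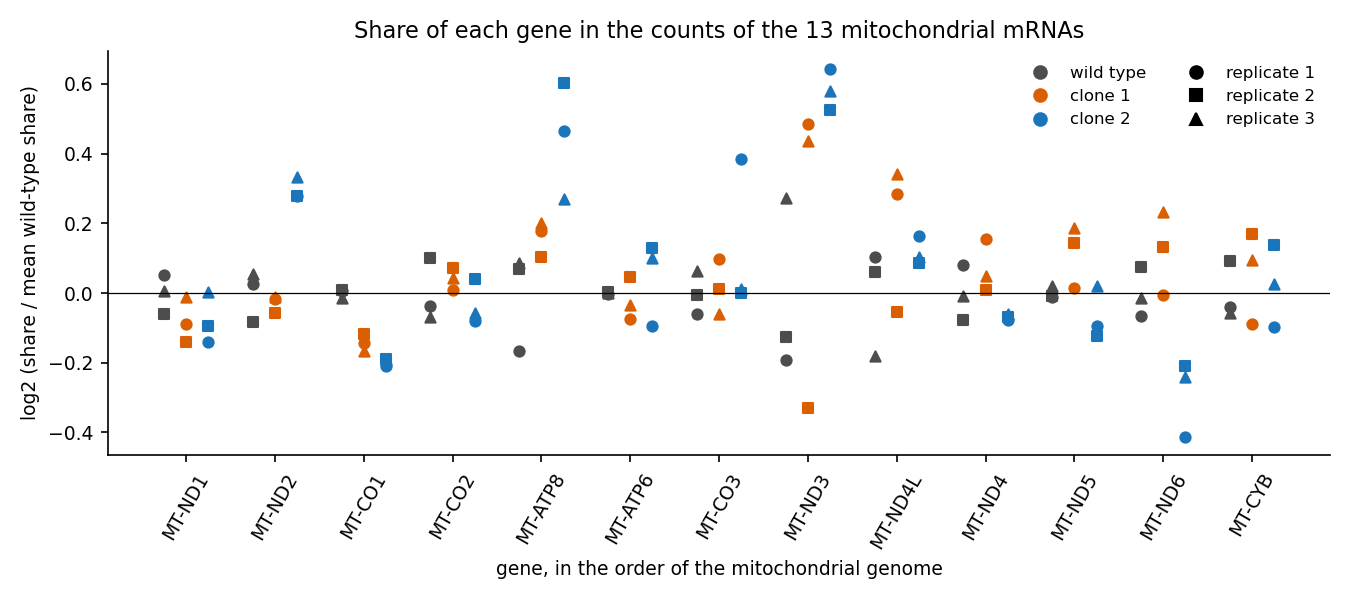
The vertical axis gives, for each library, the log2 ratio of a gene's share of the 13 mRNAs' counts to its mean share in wild type; the horizontal axis lists the genes in genome order. The MT-CO1 points fall into 3 separate groups, and the clone 2 points for MT-ND2 lie above and those for MT-ND6 below all other libraries.

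The ratios of MT-ND2 to MT-CO1 and of MT-ND6 to MT-CYB, from the same counts as the shares, gave the same picture. MT-ND2 counts per 100 MT-CO1 counts were 32.5, 30.1 and 33.6 in the wild-type libraries, 35.0, 33.5 and 35.7 in clone 1, and 45.0, 44.4 and 46.1 in clone 2. Parts of both genes are identical to nuclear copies, and how reads with several matching positions were counted is not known. This limits the ratio and the shares of both genes. MT-ND6 counts per 100 counts of MT-CYB, its neighbour on the opposite strand, were 26.6, 26.7 and 27.8 in wild-type cells, 28.6, 26.3 and 29.7 in clone 1, and 21.7, 21.2 and 22.5 in clone 2. The strand setting is not known, so reads of the other strand cannot be told apart in the MT-ND6 count. In both ratios the clone 2 libraries were apart from the other 6 (exact permutation p = 0.1 against each group). The mean ratio of MT-ND4L to MT-ND4 per 100 counts was 16.2, 17.7 and 18.5, and that of MT-ATP8 to MT-ATP6 was 1.74, 1.97 and 2.31, in wild type, clone 1 and clone 2. These latter ratios overlapped between the clones and between clone 1 and wild type (exact permutation p = 0.3 to 0.7). In clone 2 they lay above wild type without overlap (exact permutation p = 0.1).

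The rRNAs departed from each other. MT-RNR2, the large-subunit rRNA, had 1459.9, 2132 and 1109 CPM in the wild-type libraries, 1437, 2251 and 2922 CPM in clone 1, and 877, 1162 and 766 CPM in clone 2. It was lower in clone 2 than in clone 1 (-1.24, SE 0.28, adjusted p = 0.00344) without overlap, and it was not called against wild type (-0.74, SE 0.27, adjusted p = 0.115). With the replicate block, the adjusted p against wild type was 0.027. MT-RNR1, the small-subunit rRNA, had 239, 407 and 238 CPM in wild-type cells, 310.2, 409 and 589.9 CPM in clone 1, and 312, 254 and 209 CPM in clone 2. Its clone 2 libraries overlapped both other groups, with -0.19 against wild type (SE 0.25, adjusted p = 0.692) and -0.76 against clone 1 (adjusted p = 0.0315). Without wild type replicate 2 the estimate against wild type was 0.10, and without wild type replicate 3 it was -0.35.

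Counts of MT-RNR1 per 100 MT-RNR2 counts were 16.4, 19.1 and 21.4 in the wild-type libraries, 21.6, 18.2 and 20.2 in clone 1, and 35.6, 21.8 and 27.3 in clone 2. Every clone 2 library was above the other 6, the nearest by a narrow margin (exact permutation p = 0.1 against each group). The highest of these values came from clone 2 replicate 1. The sources used here do not give the method by which rRNA was removed or mRNA selected, and the rRNA level is that of what remained.

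Counts of tRNA genes were few. The 4 with the most counts, MT-TC, MT-TN, MT-TP and MT-TL1, held 13344 of the 16155 tRNA counts (82.6%). The 15 tested genes had 65 to 6326 counts over all 9 libraries, and the 7 not tested had 8 to 63. In clone 2 against wild type, all 15 tested genes had negative log2 fold changes with a median of -0.99, and 6 of them lay lower without overlap (MT-TL1, MT-TI, MT-TN, MT-TC, MT-TY and MT-TP). Of all tested genes, 11.7% lay lower without overlap in that comparison. MT-TI had only 4 to 23 counts in each of these libraries.

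MT-TL1 showed the largest difference between the clones among the genes with the most counts, at 6.67, 10.4 and 16.0 CPM in clone 1 against 1.61, 3.14 and 2.27 CPM in clone 2. The log2 fold change was -2.22 (SE 0.34, adjusted p = 0.000261), or 4.66-fold lower. The gene begins at the base that follows the end of MT-RNR2, so a count cannot tell a mature tRNA apart from an uncleaved RNA that spans both. MT-TL1 counts per 10000 MT-RNR2 counts were 50.2, 33.7 and 42.1 in wild-type cells, 46.4, 46.0 and 54.8 in clone 1, and 18.3, 27.1 and 29.7 in clone 2. All clone 2 ratios lay below all others (exact permutation p = 0.1 against each group). Over all tRNA genes, the tRNA counts per 10000 mRNA counts were 36.5, 34.0 and 43.8 in wild type, 47.6, 30.4 and 38.9 in clone 1, and 55.3, 27.1 and 32.0 for clone 2. The clone 2 mean of 38.1 (wild type 38.1, clone 1 39.0) rests on clone 2 replicate 1, the highest of all libraries. Without it the mean was 29.5, and both remaining libraries lay below every wild-type library.

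MT-TC had 32.0, 47.6 and 29.1 CPM in the wild-type libraries, 44.1, 40.7 and 69.4 CPM in clone 1, and 24.8, 17.9 and 11.1 CPM in clone 2. It was lower in clone 2 than in clone 1 (-1.52) and missed the threshold against wild type (-1.02, adjusted p = 0.0532) although the libraries did not overlap. MT-TD, which reads aspartate codons, was the only tested gene higher in clone 1 than in wild type without overlap, where 13.1% of all tested genes were. It had 13, 5 and 4 counts in wild type and 15, 31 and 39 in clone 1 (log2 fold change 2.07, adjusted p = 0.159). Counts this low leave its level poorly determined.

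Per kilobase of gene, the order of levels was nearly the same in all 9 libraries. MT-ATP6 (4612 CPM per kilobase, mean of 9 libraries) and MT-CO3 (4231) held ranks 1 and 2 in every library, and MT-CO2 (3280) and MT-CO1 (3146) ranks 3 and 4. Within each of these pairs the levels differed by less than the spread over libraries. MT-ND4 (2301) held rank 5 in all 9, followed by MT-ND4L (1876), MT-ND2 (1644), MT-CYB (1377) and MT-ND1 (1249). MT-RNR2 (1006), MT-ND3 (876), MT-ND5 (863) and MT-ND6 (798) came next, and MT-RNR1 (346) and MT-ATP8 (296) were lowest. By group, MT-ATP6 was 4826 ± 1719 CPM per kilobase in wild-type cells, 6429 ± 2311 in clone 1 and 2579.5 ± 1076 in clone 2 (SD, n = 3). MT-ATP8, from the same joint mRNA, was 276 ± 106, 415 ± 153 and 196 ± 90.6. A short gene that overlaps its neighbour can lose reads in counting, so these values do not compare the abundance of the proteins' mRNAs directly.

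**Figure D4:**
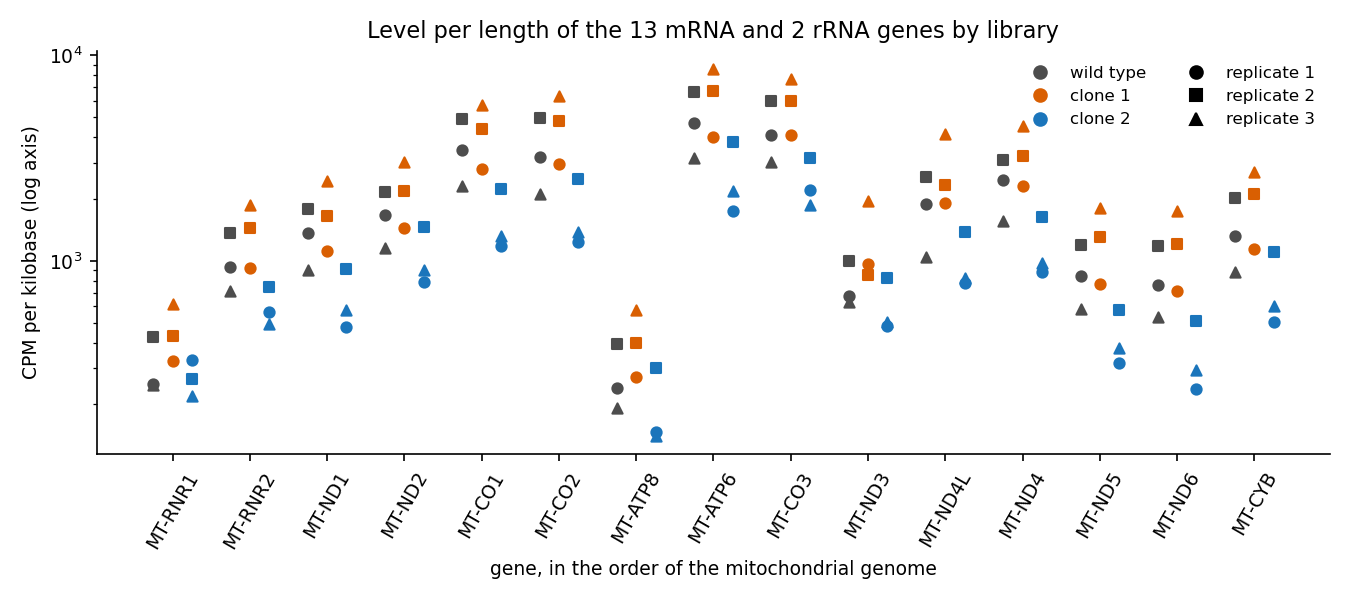
The vertical axis, on a log scale, gives CPM per kilobase of gene in each library, and the horizontal axis lists the 13 mRNA and 2 rRNA genes in genome order. MT-ATP6 and MT-CO3 are highest in each library, MT-RNR1 and MT-ATP8 are among the lowest, and clone 2 points lie toward the bottom of most columns.

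Nuclear copies of mitochondrial DNA can take up or give away reads. Of 405 such pseudogenes listed, 71 had a count. MTATP6P1, at chr1:633696-634376, had 13000 counts over all libraries, 2.27% of the count of MT-ATP6, with which it is 98.5% identical. No window of 150 bases was identical between them (0 of 532). MTCO1P12, at chr1:631074-632616, had 4272 counts, 0.481% of the MT-CO1 count, and 202 of 1393 windows (14.5%) were identical. MTND2P28, at chr1:629640-630683, had 587 counts, 0.188% of the MT-ND2 count, and 140 of 893 windows (15.7%) were identical. Of the 6 copies with the highest level, only these 2 had identical windows. None of the 6 copies with the highest level was called in either clone against wild type. All 6 were lower in clone 2 than in clone 1, MTATP6P1 by -1.34 (adjusted p = 0.0204) and MTCO1P12 by -1.53 (adjusted p = 0.00728). Both calls were lost without clone 2 replicate 3, and that of MTATP6P1 also without clone 2 replicate 1. MTATP6P1 counts relative to MT-ATP6 counts were higher in clone 2 than in wild type without overlap (exact permutation p = 0.1). They overlapped in the other comparisons, and those of MTCO1P12 relative to MT-CO1 overlapped in all. The sources used here do not give how reads with several matching positions were counted. Counts of these copies and of their mitochondrial parents are therefore uncertain. The percentages above do not bound this uncertainty, because reads left out of both counts would not appear in them.

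Some other measures of the libraries followed the mitochondrial share in part. The number of genes detected was 23525, 24309 and 22937 in the wild-type libraries, 23460, 22768 and 24349 in clone 1, and 19905, 22792 and 21395 in clone 2. The long nuclear RNAs MALAT1 and NEAT1, which stay in the nucleus, together made up 0.0264%, 0.0369% and 0.0152% of counts in wild-type cells, 0.0318%, 0.0313% and 0.0699% in clone 1, and 0.00766%, 0.0206% and 0.00779% in clone 2. In wild type and in clone 2, the library with the lowest mitochondrial mRNA share also had the lowest share of these RNAs, and clone 1 replicate 3 had the highest of both over all libraries. Genes for ribosomal proteins did not follow it, with 9.16% of counts in clone 2 replicate 1 and 9.13% in clone 1 replicate 3.

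MALAT1 was lower in clone 2 than in clone 1 by -2.32 (adjusted p = 0.0103) and NEAT1 by -1.50 (adjusted p = 0.0269). Both calls were lost without clone 2 replicate 1 or clone 2 replicate 3, and that of NEAT1 also without wild type replicate 1 or clone 1 replicate 3. RPPH1, the RNA of nuclear RNase P, was lower by -1.47 (adjusted p = 0.00383) whichever library was left out. The part of these library differences in the mitochondrial results was not tested.

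**Figure D5:**
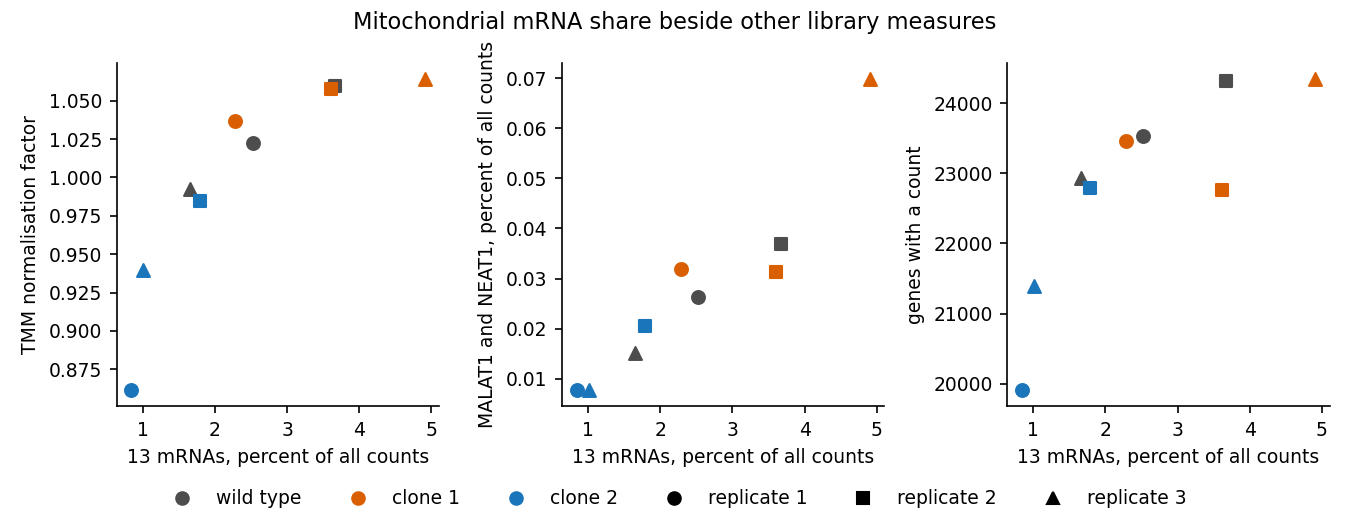
Each point is 1 library; the horizontal axes give the share of counts from the 13 mitochondrial mRNAs in percent, and the vertical axes give the TMM factor, the number of genes detected and the share of MALAT1 and NEAT1. Clone 2 replicate 1, with the lowest mitochondrial share (0.843%), also has the fewest genes detected (19905) and the lowest TMM factor (0.861).

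The nuclear genes that transcribe and maintain mitochondrial DNA were called about as often as other genes. Of 20 tested genes for replication and transcription of mitochondrial DNA, 1 was higher in clone 1 than in wild type and none was lower, and none was called in clone 2 against wild type, where 5.51% and 5.96% of all tested genes were called. Their median log2 fold changes were 0.12 and -0.03, against -0.02 and 0.00 over all genes. The 1 called gene was PRIMPOL, a primase-polymerase (0.78, adjusted p = 0.0157), and it lost the call without any of 5 libraries (wild type replicates 2 and 3 and each clone 1 replicate), with adjusted p up to 0.0695. TFAM, which packages the circle and starts transcription, had 0.00 and -0.03 in clones 1 and 2 against wild type (adjusted p = 0.992 and 0.942).

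Between the clones, 3 of these 20 genes were higher and 4 lower in clone 2, with a median of -0.07, near the 33.9% of all tested genes called in this comparison. POLRMT, the mitochondrial RNA polymerase, had 53.3, 57.3 and 64.7 CPM in the wild-type libraries, 45.4, 53.5 and 44.8 CPM in clone 1, and 75.8, 79.7 and 82.2 CPM in clone 2. It was therefore highest in the clone with the lowest mitochondrial mRNA share, and the clone 2 libraries did not overlap any other. POLRMT was called between the clones (0.73, adjusted p = 0.000949), whichever library was left out, and not in clone 2 against wild type (0.44, adjusted p = 0.0628). TFB2M (-0.34, adjusted p = 0.134) and TEFM (-0.27, adjusted p = 0.225), which help the polymerase to start and to elongate, were not called between the clones.

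Of 29 tested genes for processing and stability of mitochondrial RNA, none was called in either clone against wild type. In clone 2 against clone 1, 8 were higher and 1 lower (median 0.03), where 19.8% of all tested genes were called higher and 14.1% lower. LRPPRC, which with SLIRP stabilises mitochondrial mRNAs, had 187, 148 and 252 CPM in wild-type cells, 164, 133 and 110 CPM in clone 1, and 249, 231 and 274 CPM in clone 2. It was higher in clone 2 than in clone 1 (0.89, adjusted p = 0.0025) without overlap. SLIRP was not called in any comparison (0.53, 0.20 and -0.33 in clone 1 and clone 2 against wild type and clone 2 against clone 1, adjusted p = 0.295, 0.708 and 0.392). Among 10 regulators of mitochondrial biogenesis, PPRC1 was higher in clone 2 than in wild type (0.60, adjusted p = 0.0362, up to 0.173 without 1 library), and PPARGC1A was not called in any comparison.

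The nuclear subunits of the same complexes were called about as often as all tested genes between the clones, and in both directions. None of 15 complex I, 9 complex III, 10 complex IV and 12 ATP synthase subunits was called in either clone against wild type. In clone 2 against clone 1, 2, 1, 1 and 3 of them were higher and 3, 1, 3 and 1 were lower, with medians of 0.00, -0.23, -0.32 and -0.26, where 19.8% of all tested genes were called higher and 14.1% lower. The mitochondrially encoded mRNAs had a median of -1.43 in that comparison. In complex II, which has no mitochondrially encoded subunit, SDHA was higher in clone 2 than in wild type (0.62, adjusted p = 0.0315) and than in clone 1 (1.17, adjusted p = 0.000113). The call against wild type had an adjusted p of up to 0.153 without 1 library.

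Mitochondrial chaperones and proteases were mostly higher in clone 2 than in clone 1. Of 12 tested, LONP1, a matrix protease (0.69, adjusted p = 0.0178), and HSPA9, a matrix chaperone (0.73, adjusted p = 0.0413), were higher in clone 2 than in wild type, and AFG3L2, an inner-membrane protease, was lower in clone 1 (-0.66, adjusted p = 0.0149). Leaving out single libraries raised these adjusted p-values to 0.099, 0.185 and 0.102. In clone 2 against clone 1, 9 of the 12 were higher and 1 lower, with a median of 0.57, where 19.8% of all tested genes were called higher. Of 10 genes of the outer membrane and of mitochondrial mass, VDAC1, the outer-membrane channel, was higher in clone 2 than in wild type (0.61, adjusted p = 0.0368, up to 0.157 without 1 library), and 4 were higher and 1 lower in clone 2 than in clone 1.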

How the data were processed

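RNA was sequenced from 9 libraries: 3 of wild-type cells, 3 of JAG1-knockout clone 1 and 3 of clone 2. The deposited values are raw gene counts in 2 tables, 1 per clone. Both repeat the wild-type columns (3 of 3 identical), which entered the fit a single time. The submitters' processing notes name the tools STAR, Subread, featureCounts and DESeq2 and the build GRCh38. Versions, annotation release, strand and multi-mapping settings were not found there.

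Genes were tested with edgeR 4.0.16 (R 4.3.3, limma 3.58.1; TMM, filterByExpr with a minimum count of 10, robust quasi-likelihood F test) on all 9 libraries as 3 groups. P-values were adjusted by Benjamini-Hochberg over all 16921 genes, with a threshold of 0.05, and the SE was derived from the F statistic. CPM values are TMM-scaled, and shares use plain totals. Shares and ratios were compared by exact two-sided permutation tests. Total counts of 16890890 to 22456164 per library give the mitochondrial mRNAs high counting precision, so replicate spread sets the error (biological coefficient of variation 20.26% over all genes). No replicates were duplicates (chi-square per gene 17.4 to 61.9). The fit was tested on simulated data. It called 49.0 to 65.3% of the genes given a log2 change of 1 and 81.25 to 87.6% of those given a log2 change of 2. Of its calls, 5.23 to 8.84% were false, above the 5% aimed at. A gene not called may therefore still have changed. Alternatives were RLE scaling, library sizes without mitochondrial genes, no filter, DESeq2 1.42.0, only the 6 libraries compared, each library left out, the replicate block and, chosen after seeing the data, a GC trend taken out, the block within 6 libraries, and leaving libraries out of the shares.

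Same-numbered libraries of wild type and clone 2 deviated together from their group means, with correlations of 0.334, 0.352 and 0.337. The labels do not say what a number marks. The named genes were all mRNA and rRNA genes, tRNA genes that were tested or among the 4 with the most counts, the 6 nuclear copies with the highest level, up to 4 genes per nuclear list with the smallest adjusted p against wild type, and a preset list of regulators. The members and the gene lists were chosen with earlier results of these data known. Sequences came from GENCODE release 29 transcripts.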

Additional observations from a re-analysis of the deposited data

Results flagged for a closer look

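For 23 mitochondrially encoded genes, the 2 clones differed in their change against the same wild type, by a test of the difference itself (edgeR, clone 2 against clone 1, adjusted p from 0.000261 to 0.0498; 33.9% of all tested genes were called in that comparison). As log2 fold changes, the complex I subunits had -1.41 for MT-ND1, -1.08 for MT-ND2, -1.07 for MT-ND3, -1.50 for MT-ND4L, -1.53 for MT-ND4, -1.61 for MT-ND5 and -1.82 for MT-ND6. Among the subunits of complexes III and IV and of ATP synthase, the values were -1.43 for MT-CYB, -1.45 for MT-CO1, -1.46 for MT-CO2, -1.29 for MT-CO3 and -1.32 for MT-ATP6. The rRNAs had -0.76 for MT-RNR1 and -1.24 for MT-RNR2. The tRNA genes had -2.22 for MT-TL1, -1.52 for MT-TN, -1.52 for MT-TC, -1.21 for MT-TY, -2.35 for MT-TD, -1.52 for MT-TG, -1.57 for MT-TR, -1.27 for MT-TH and -1.30 for MT-TP. Clone 2 was the lower in all 23. The mRNAs among them varied together across libraries, so these calls are not independent of each other. No group here has 4 or more libraries, so single libraries were not tested as outliers.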

How the results depend on the processing

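The share of counts from the 13 mRNAs kept its direction in all 3 comparisons under every alternative run, and the changes of the 19 named genes kept theirs in 301 of 304, 322 of 323 and 304 of 304 values (clone 1 and clone 2 against wild type, clone 2 against clone 1). The exceptions were MT-RNR1 in clone 2 without wild type replicate 2 (range leaving out 1 library -0.352 to 0.098), and MT-TP in clone 1 without wild type replicate 3 (-0.069) or clone 1 replicate 3 (range -0.087 to 0.173) and with the GC trend taken out (-0.045). Of 30 tested mitochondrial genes, clone 2 against wild type called 3, but 13 without the filter, 13 with the replicate block, 19 with the replicate block in only the 6 libraries, 6 with DESeq2, and 0 to 12 leaving out 1 library. Clone 1 against wild type called 0, with 2 without the filter and 0 to 0 leaving out 1 library. Clone 2 against clone 1 called 23, with 22 under the replicate block and 12 to 24 leaving out 1 library. The mitochondrial mRNAs varied together across libraries, so neither these calls nor the kept directions are independent of each other. Of all genes, clone 1 against wild type called 933, with 1512 without the filter, 2322 with the replicate block and 200 to 1300 leaving out 1 library. Clone 2 against wild type called 1008, with 1663 without the filter, 2699 with the replicate block, 4320 with the block in 6 libraries, 1656 with DESeq2, 416 in only the 6 libraries and 227 to 1584 leaving out 1. Clone 2 against clone 1 called 5733, with 7101 under the block and 3639 to 5782 leaving out 1. Of the 13 shares within mitochondrial mRNA, clone 1 and wild type did not overlap in 2, and in 3 to 6 leaving out 1 library. The cause was not tested. Same-numbered libraries of clone 1 and wild type correlated at 0.335, 0.106 and -0.144, and those of the clones at 0.287, -0.020 and 0.016. Of these same-numbered libraries, only those numbered 1 came near the values for wild type and clone 2. Differently numbered libraries also came near them, with 0.302 for clone 1 replicate 3 and wild type replicate 2. Clone 2 replicate 2 and clone 1 replicate 3 had 0.254. The other differently numbered libraries in these comparisons ran from -0.362 to 0.151. Whether the numbers pair libraries was not tested. Depth limits the tRNA genes: 7 of 22 had too few counts to test.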
